A study of Rattus norvegicus with 6 samples.

Results

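The opening sites of maturing rat pancreatic islets are 2255 of 101603 distinct accessible chromatin sites (ACS), and they were chosen by their measured values. For each library the count of Tn5 integrations in an ACS was scaled to the sum of all counts of that library over distinct ACS and given as counts per 1000000 counts (CPM). An ACS was kept where its mean raw count over the 6 libraries was 50 or more and its lowest adult CPM was at least 1.5 times its highest CPM in pups at postnatal day 10 (P10). Of the 60990 ACS with a mean count of 50 or more, 3.7% met this rule, and 607 ACS met the mirrored rule for lower values in adults. Since the same counts selected the sites, the difference between ages at these sites is a description and was not tested.

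In ATAC-seq the enzyme Tn5 cuts open chromatin and tags the cut ends, so integrations count accessibility. The libraries came from dissociated islet cells of Sprague-Dawley rats, 3 from single adult males of around P90 and 3 from pooled P10 pups of both sexes from 3 litters. Nothing in the labels or methods describes a treatment or genetic change in either group. Age, sex, single rat against pooled litter and the way the pancreas was digested (shaken by hand at P10, injected through the duct in adults) differ together between the groups and cannot be told apart. The adult replicates 4, 5 and 6 held 11903909, 10319487 and 7916919 integrations inside ACS, and the P10 replicates 1, 2 and 3 held 21168463, 13491534 and 18108935. Values per library are given below in that order. Positions are those of the Rn5 assembly, and the nearest gene is the one the deposited table gives.

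Islets hold insulin-secreting β-cells together with α-, δ- and other endocrine cells. After birth β-cells pass from a proliferative state with poor glucose response to one that couples glucose metabolism, membrane excitation and calcium entry to granule release. Accessible DNA away from gene starts often holds enhancers, which can act on genes other than the nearest, so the nearest gene names a place and not a target.

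Over the opening sites the median level was 13.4, 11.9 and 13.1 CPM in adults and 4.96, 4.67 and 5.03 CPM at P10. The sites took 3.75%, 3.30% and 3.70% of all integrations in the adult libraries and 1.46%, 1.39% and 1.48% in the P10 libraries. In bulk islet cells a site that is open in more cells and one that is more accessible per cell cannot be told apart. Median raw counts per site were 159, 123 and 104 in adults and 105, 63 and 91 at P10.

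By its construction the rule rests at every site on a single adult and a single P10 library, the lowest and the highest. Adult replicate 5 was the lowest adult library at 1205 sites (53.4%), adult replicate 6 at 591 and adult replicate 4 at 459. The highest P10 library was replicate 3 at 868 sites, replicate 1 at 841 and replicate 2 at 546. Without adult replicate 5 the rule kept 3620 sites, of which 2208 were among the 2255. Leaving out a library can only relax the condition on CPM. Scaling with edgeR's TMM factors (trimmed mean) kept 2748 sites including all 2255, while the total reads sequenced per library, used in place of the integrations inside ACS, kept 209.

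All 2255 opening sites were also called higher in adults by edgeR's quasi-likelihood test (p under 0.05 and false discovery rate under 0.2), beside 12.3% of all ACS called higher (12504) and 6.63% called lower (6738), and nothing is read from this because the same counts chose the sites. With total reads as library sizes the same test called 1062 ACS higher and 61663 lower, and the median log2 difference over all ACS moved from -0.01 to -0.84. Directions below are therefore relative to the integrations that fell inside ACS. With edgeR's TMM factors, as in the main fit, and without P10 replicate 2, 7973 ACS were called higher and 3285 lower, and 4232 were called lower without P10 replicate 3.

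The rule can be read in libraries that it did not use. It was applied to 2 adult and 2 P10 libraries, and the log2 ratio of adult to P10 CPM (0.5 CPM added to each) was then taken in the left-out pair, for all 9 pairs. The sites so chosen numbered 3003 to 5120, and their median log2 ratio in the left-out pair was 0.97 over the pairs, from 0.64 to 1.14. Between 83.9% and 96.0% of them lay above 0 there, and between 53.8% and 83.2% reached the factor of 1.5 in the left-out pair. Over all ACS with a mean count of 50 or more, the median ratio of the pairs was -0.03, with 47.8% above 0 and 15.1% at the factor. The lowest median, 0.64, came with adult replicate 5 and P10 replicate 1 left out. With total reads the medians ran from 0.09 to 1.41.

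The threshold passes through a continuous range of values. Just inside it lay a site 60356 bp downstream of *Mrpl15* at chr5:19463811-19464226 with 7.56, 9.88 and 9.47 CPM in adults and 2.69, 5.04 and 3.76 CPM at P10, and a site near *Pdcl3* with 13.9, 10.3 and 14.7 CPM in adults and 5.91, 5.63 and 6.85 CPM at P10. A site upstream of *Il34* with 24, 12.4 and 13.1 CPM in adults and 8.27, 5.93 and 5.08 CPM at P10 was the next. Just outside lay a site near *Bpifa2f* with 11.5, 8.72 and 8.72 CPM in adults and 5.81, 4.67 and 5.58 CPM at P10, a site near *Lphn2* with 11.8, 15.8 and 15.4 CPM in adults and 6.52, 6.3 and 7.84 CPM at P10 and a site inside *Csmd1* with 12.6, 11.9 and 13.4 CPM in adults and 6.52, 7.41 and 7.95 CPM at P10. In each of these 6 sites the lowest adult value divided by the highest P10 value was 1.5 after rounding.

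Most opening sites lay away from gene starts. The table classes 2057 of them (91.2%, 95% Wilson interval 89.98 to 92.3) as distal, 177 (7.85%) as proximal, which is up to 10 kb from a gene start, and 21 (0.931%, interval 0.610 to 1.42) as at the start, under 1 kb away. Among all ACS with a mean count of 50 or more, 72.2% were distal, 11.2% proximal and 16.6% at a start, and the 607 ACS of the mirrored rule were distal in 77.4% and at a start in 11.5%. Put the other way, the rule was met by 4.67% of distal, 2.60% of proximal and 0.207% of gene-start ACS of that depth. Sites inside their nearest gene numbered 619 (27.5%), beside 22.0% of ACS of that depth. With total reads this share was 21.1%, below that of the ACS of that depth, and with a factor of 2 it was 22.8%. Another 165 (7.32%) were over 500 kb from their nearest gene, beside 5.43% of ACS of that depth and 7.79% of all ACS. Among distal sites alone this share was 8.02% of opening sites and 7.51% of ACS of that depth. These positions were not part of the rule, and no test was made of the differences in share.

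Opening sites had a median width of 377 bp, with quartiles of 291 and 486 bp. The median was 493 bp over ACS of that depth and 373 bp over all ACS, so they were narrower than ACS of that depth and not than ACS in general. The rule was met by 9.18% of ACS under 300 bp, by 3.94% of those from 400 to 500 bp and by 0.0925% of those of 1000 bp or more. By mean count the share was 3.45% from 50 to 75 counts, 5.08% from 100 to 150 and 0.399% at 500 or more, so the widest and deepest ACS were seldom among the opening sites.

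The share of ACS that opened differed along the genome. Chromosome 18 had the highest share, with 144 of 2193 ACS of sufficient depth (6.57%), followed by chromosome 11 with 5.26% and chromosome 9 with 4.79%. Chromosome 12 had 8 of 1121 (0.714%), chromosome 10 had 18 of 2449 (0.735%) and chromosome 3 had 1.69%. Among distal ACS alone the values were 7.85% on chromosome 18, 1.07% on chromosome 12 and 1.36% on chromosome 10. Chromosomes 10 and 12 also had a larger part of their ACS at gene starts, 32.1% and 27.6%, against 11.5% on chromosome 18. On the X chromosome, which the pups of both sexes and the adult males carry in different numbers, the share was 2.35% (32 of 1363).

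Opening sites lay near each other more often than ACS in general lay near one of them. Another opening site was found within 50 kb of 380 of the 2255 (16.9%), and 10.4% of all ACS of that depth had one as near. The median number of other ACS of any depth within 50 kb was 4 around opening sites. Around all ACS with a mean count of 50 or more it was 5, with quartiles of 3 and 7 for both. Joined at gaps under 50 kb, they formed 1875 single sites, 157 pairs, 18 runs of 3 and 3 runs of 4.

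The runs with the most sites were on chromosomes 5 and 15. One run spanned 71001 bp from 4934611 to 5005611 on chromosome 5 between *Xkr9*, which encodes an XK-related membrane protein, and *Lactb2*. Its site inside *Xkr9* had 39.9, 30.6 and 33.3 CPM in adults and 13, 12.8 and 15.3 CPM at P10, and the widest of the 3 sites near *Lactb2* had 36.8, 32 and 30.1 CPM in adults and 18.9, 16.9 and 17.2 CPM at P10. A run of 45962 bp lay from 93344972 to 93390933 on chromosome 15, downstream of *Spry2*, an inhibitor of receptor tyrosine kinase signalling. The best covered of its 4 sites, chr15:93357631-93358094, had 39.3, 29.3 and 43.1 CPM in adults and 9.5, 8.82 and 9.55 CPM at P10. The only other ACS within this span was also called higher in adults, with a log2 difference of 0.83. The run near *Dad1*, from 36530759 to 36573716 on chromosome 15, held 4 opening sites among 6 ACS, and its other ACS differed between -0.20 and 0.26 on the log2 scale with none called. At the narrowest of its sites, chr15:36573488-36573716, there were 11.3, 10.9 and 7.71 CPM in adults and 1.8, 0.964 and 1.82 CPM at P10, the lowest P10 levels among the sites of these runs.

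ACS outside the set that lay close to an opening site were called higher more often than those farther away. Within 5 kb of an opening site 25.3% of 529 such ACS were called higher in adults by edgeR, from 5 to 20 kb 21.3%, from 20 to 50 kb 20.6%, from 50 to 100 kb 18.6%, from 100 to 500 kb 15.6% and beyond 500 kb 10.8%. Over all 58735 ACS of that depth outside the set the share was 14.1%, and over all 99348 ACS outside the set of any depth it was 10.3% higher and 6.78% lower. The median log2 difference was 0.20 within 5 kb and -0.02 beyond 500 kb. An ACS outside the set is capped by the rule, and it shares its libraries with the sites that were chosen, so these values are a description.

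The 2255 sites had 1635 nearest genes, of the 14663 genes that were nearest to any ACS. One opening site was counted for 1226 genes, 2 or more for 409, 4 or more for 54 and 6 for 7 genes. The 7 genes were *Gli2*, *Bend6*, *Lrrtm3*, *Arhgap21*, *Rab12*, *Kcnk9* and *Commd10*. Among the genes with 5 opening sites, *Tiam1*, *Ptprm* and *Cdh5* had the highest shares of their ACS. Some genes with fewer opening sites had higher shares, such as *Cttnbp2nl* with 4 of 13. A gene in a large gene-poor stretch is nearest to many ACS, so the number of ACS of each gene is given beside its count.

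*Gli2*, a transcription factor of Hedgehog signalling, had 6 opening sites among 24 ACS. The best covered of them, chr13:40066662-40067141, 55068 bp upstream of the start, had 41.6, 34.9 and 41.6 CPM in adults and 22, 17.7 and 18.9 CPM at P10. Its proximal site 1350 bp upstream of the start had 12.9, 10.6 and 15.5 CPM in adults and 6.76, 4.3 and 5.14 CPM at P10. Adult replicate 5 was the lowest adult library at both, and 3 of the 18 other ACS of the gene were called higher and none lower.

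*Tiam1*, an activator of the GTPase Rac, had 5 opening sites among 24 ACS. Inside the gene, chr11:33604272-33604907 had 33.5, 29.5 and 28.9 CPM in adults and 16.2, 10.7 and 13.3 CPM at P10. Beyond the gene end, chr11:33503621-33504325 had 34.3, 26 and 39.8 CPM in adults and 11.6, 10.5 and 13.1 CPM at P10. The site 4040 bp upstream of the start had 14.2, 15.4 and 17.2 CPM in adults and 8.93, 6.0 and 7.18 CPM at P10. P10 replicate 2 was the lowest library at all 3.

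*Rab12*, a small GTPase of membrane traffic, had 6 of 62 ACS in the set, and 16 of its 56 other ACS were called higher against 1 lower. Its opening site 131264 bp upstream had 40.2, 35.7 and 46 CPM in adults and 15.7, 15.3 and 17.6 CPM at P10. A further one lay at the gene start, inside the gene and between 325 and 728 bp from its first base, with 15, 11.5 and 13.5 CPM in adults and 7.04, 5.71 and 5.96 CPM at P10. The neighbouring *Ptprm*, an adhesive receptor tyrosine phosphatase on the same chromosome, had 5 of 27, all inside the gene, and the one at chr9:114829207-114829788 had 19.6, 23.8 and 23.9 CPM in adults and 7.94, 12.9 and 7.62 CPM at P10. P10 replicate 2 was the highest P10 library at that site and the lowest at both *Rab12* sites.

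*Arhgap21*, a GTPase-activating protein, had 6 of 56 ACS in the set, of which 4 lay 381132 bp or more beyond the gene end. *Kcnk9*, a background potassium channel, had 6 of 74, all of them 211026 bp or more beyond the gene end, and *Commd10* had 6 of 75. At chr18:41294701-41295027, beyond the end of *Commd10*, there were 23.6, 27.2 and 23.6 CPM in adults and 4.44, 4.45 and 7.07 CPM at P10. *Bend6*, a BEN domain protein, had 6 of 27, all upstream, in a stretch from 17638 to 224207 bp away. Its site nearest the start had 19.7, 21.1 and 21.1 CPM in adults and 10.8, 11.7 and 9.17 CPM at P10. None of these 4 genes had an opening site at its start, and for the distal sites the nearest gene is only a landmark.

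The gene starts of genes with an opening site were compared over all libraries. Among 1313 gene-start ACS outside the set whose nearest gene had an opening site, edgeR called 65 higher (4.95%) and 71 lower (5.41%), and the median log2 difference was 0.01. With total reads as library sizes 0 of them were called higher and 1130 lower (86.1%), with a median of -0.83. Over all 11034 gene-start ACS outside the set, 2.55% were called higher and 7.88% lower, and for the 9721 gene-start ACS of genes without an opening site the median was -0.12. For genes with 2 or more opening sites 20 of 356 gene-start ACS were called higher (5.62%) and 10 lower (2.81%). The count of 65 was 123 without adult replicate 5, 29 without adult replicate 4 or P10 replicate 3, 36 without adult replicate 6 and 22 without P10 replicate 2. The count of 71 lower was 35 without P10 replicate 2 and 37 without P10 replicate 3. The other ACS of the same genes, at any position, numbered 27792, of which 3773 (13.6%) were called higher and 6.12% lower (2243 higher and 817 lower without P10 replicate 2, 885 lower without P10 replicate 3), beside 9.05% and 7.04% for ACS of genes without an opening site. With total reads as library sizes 75 of the 27792 were called higher and 15851 lower (57.0%).

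Of 72 genes taken by list or count, 53 had a gene-start ACS outside the set, 68 in all, of which 5 were called higher, 3 lower and 60 neither. Of those 60, 51 were called lower with total reads, and 12 were called one way or the other in a different fit. The start of *Syt4* had 22.5, 18.3 and 21.9 CPM in adults and 14.3, 10.7 and 16.7 CPM at P10, a log2 difference of 0.68 (adjusted p = 0.0388, edgeR). The start of *Dusp6*, which encodes a phosphatase of the kinase ERK, had 41.3, 38.2 and 51.5 CPM in adults and 25.4, 33.1 and 33.1 CPM at P10, a difference of 0.61 (adjusted p = 0.0231, edgeR). At both, every adult library was above every P10 library. The other 3 called higher were a second start ACS of *Ppargc1a* (0.46), *Bach1* (0.41) and *Tiam1* (0.63). Lower calls were *Erbb4* (-0.90), *Bcl11b* (-1.14) and *Slc16a1* (-0.44), each a gene with an opening site elsewhere. With total reads the 5 higher calls took the opposite sign. By DESeq2 the calls at *Bach1* (0.40, adjusted p = 0.233) and *Tiam1* (0.62, adjusted p = 0.231) were lost, and by limma-voom those at *Tiam1* (0.55, adjusted p = 0.270) and *Slc16a1* (-0.43, adjusted p = 0.206). The call at *Syt4* was lost without P10 replicate 2 (0.51, adjusted p = 0.280, edgeR), and the call at *Bcl11b* without the same library (-0.77, adjusted p = 0.375, edgeR). The calls at *Bach1*, *Ppargc1a*, *Tiam1* and *Slc16a1* were each lost without P10 replicate 2 and without adult replicate 4 too, with differences of 0.30, 0.36, 0.63 and -0.37 in the former fit and 0.27, 0.40, 0.71 and -0.41 in the latter. Calls were also lost without adult replicate 6 at *Bach1* (0.40), *Ppargc1a* (0.38) and *Tiam1* (0.28), without adult replicate 5 at *Slc16a1* (-0.36), and without P10 replicate 3 at *Bach1* (0.43), *Tiam1* (0.52) and *Slc16a1* (-0.42).

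*Mrs2* encodes a mitochondrial magnesium channel. Its opening site at chr17:43949035-43949414, inside the gene and 683 bp from the gene end, had 51.2, 43.7 and 44.2 CPM in adults and 6.76, 7.12 and 8.72 CPM at P10. The gene start, at chr17:43931883-43932891, had 52.3, 41.9 and 50.9 CPM in adults and 38.6, 42.1 and 45.7 CPM at P10. The ages were not called different at the start, where the log2 difference was 0.30 (adjusted p = 0.307, edgeR). It was called higher without adult replicate 5 (0.41) and lower with total reads (-0.53).

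Gene lists of islet biology were counted against the opening sites, each list beside the share over all ACS, of which 2.22% were opening sites. Only ACS with a mean count of 50 or more could meet the rule, and of these 3.70% did. On that base receptors of hormones and neurotransmitters (3.86%) lay above the share over all rather than below it, and the clock (3.23%), lipid (3.45%), δ-cell marker (3.57%) and β-cell marker (3.23%) lists below it rather than above. Of 40 islet transcription factors, 35 had an ACS and 12 had an opening site, with 24 opening sites among 733 ACS (3.27%). *Irx1*, a homeobox factor of α-cells, had 5 of 50, *Meis1* 4 of 53, *Bach2* 3 of 79, and *Foxa1*, *Irx2* and *Myt1l* 2 each. *Etv1*, *Lmx1a*, *Nkx6-1*, *Pax6* and *Tcf7l2* were among those with 1 each.

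*Foxa1*, a pioneer factor that opens chromatin in endoderm, had 1 of its 2 opening sites within 1 kb of the gene start. This site, chr6:88074841-88075490, 601 bp upstream, had 49.6, 41.9 and 41.3 CPM in adults and 19, 15.3 and 17.8 CPM at P10. The ACS over the start itself was outside the set with 13.1, 9.3 and 9.47 CPM in adults and 8.88, 9.86 and 9.44 CPM at P10 and was called neither way. The upstream site was above the ACS at the start in each of the 6 libraries.

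*Pax6*, a factor needed for islet hormone genes, had 1 opening site among 24 ACS. At chr3:102302140-102302680, 24546 bp upstream, it had 23.8, 21.3 and 19.6 CPM in adults and 9.02, 9.41 and 12.3 CPM at P10. *Nkx6-1*, a β-cell identity factor, had 1 of 20, 28932 bp beyond the gene end, with 18.6, 17.2 and 15.7 CPM in adults and 8.79, 9.34 and 8.95 CPM at P10. At both the 3 adult values lay close together, within 5 CPM of each other. Of the *Meis1* sites, chr14:103284068-103284575 was the best covered, with 31.7, 23.9 and 28.3 CPM in adults and 13.7, 9.71 and 13.5 CPM at P10, and 7 of the 49 other ACS of *Meis1* were called lower and none higher.

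The 40 nuclear receptors held 8 opening sites among 461 ACS (1.74%), at 6 genes. *Rorb*, a retinoid-related orphan receptor, had the best covered one at chr1:241207918-241208843, 145497 bp upstream, with 72.3, 68.7 and 62.4 CPM in adults and 22.8, 24.3 and 28.4 CPM at P10. The site of *Pgr*, the progesterone receptor, had 55.3, 46.3 and 51.5 CPM in adults and 25.3, 24.3 and 30.3 CPM at P10. *Thrb*, the thyroid hormone receptor β, had 2, and the one inside the gene had 7.06, 6.2 and 6.19 CPM in adults and 2.88, 2.96 and 2.65 CPM at P10. Thyroid hormone is known to promote β-cell maturation in rats, and at both ages the level at this intragenic site was below the median of the opening sites.

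The clock list held 3 opening sites among 120 ACS (2.50%). *Npas2*, a paralogue of the clock activator Clock, had 1 inside the gene, 35494 bp from the start, with 24.3, 29.3 and 30.6 CPM in adults and 11, 8.89 and 10.5 CPM at P10. *Nr1d2*, which encodes the repressor Rev-erbβ, had 2 beyond its end, of which chr15:12878338-12878591 had 9.91, 6.78 and 10.5 CPM in adults and 3.54, 2.3 and 1.77 CPM at P10. The gene starts of both genes were called neither way.

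Of the 45 genes of the secretory granule and exocytosis, 41 had an ACS and 6 an opening site, with 8 sites among 473 ACS (1.69%). *Cpe*, the carboxypeptidase that trims proinsulin, had the best covered one, 69745 bp beyond the gene end, with 49, 44.4 and 45.2 CPM in adults and 23.5, 23.8 and 25.5 CPM at P10. *Ptprn2*, a granule membrane protein, had 2 inside the gene, and *Chga*, a granule core protein, 1 with 9.16, 8.92 and 11.4 CPM in adults and 5.62, 5.19 and 4.69 CPM at P10. *Syt4*, a synaptotagmin that sets the calcium dependence of release as β-cells mature, had 1 of 7. This site, chr18:23903464-23903769, 1036 bp upstream of the start, had 10.1, 7.27 and 8.72 CPM in adults and 2.17, 2.22 and 2.65 CPM at P10. It was among the least covered of these sites, with the lowest adult value in replicate 5.

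Ion channels of excitation held 21 opening sites among 656 ACS (3.20%), at 11 of 52 genes. *Kcnma1* and *Kcnn2*, calcium-activated potassium channels of large and small conductance, had 3 each. *Cacna1e*, the pore of R-type calcium channels, had 2 of 19, and the one at chr13:76910054-76910532, inside the gene and 396455 bp from its start, had 35, 26.8 and 31.6 CPM in adults and 7.42, 6.89 and 7.18 CPM at P10. *Kcnd3*, a potassium channel of fast transient currents, had 2 inside the gene, of which chr2:227382447-227382877 had 31.3, 25.9 and 22.9 CPM in adults and 10.0, 10.0 and 12.4 CPM at P10. The 3 P10 libraries lay within 1 CPM of each other at the *Cacna1e* site. Other genes with an opening site were *Kcna2*, *Kcnip4*, *Kcnmb2*, *Itpr2*, *Kcnq5* and *Scn3a*.

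Hormone and neurotransmitter receptors held 13 opening sites among 676 ACS (1.92%), at 12 of 67 genes. *Fshr*, the receptor of follicle-stimulating hormone, had 1 upstream, at chr6:23036961-23037762, with 31.1, 21.2 and 27 CPM in adults and 11, 9.93 and 11.8 CPM at P10. *Chrm2*, a muscarinic acetylcholine receptor, had 1 upstream, 253137 bp away, with 16.7, 19.4 and 24.3 CPM in adults and 9.97, 8.97 and 10.4 CPM at P10. The adult and P10 libraries did not overlap at either site, as the rule requires. The muscarinic receptor *Chrm3*, the adrenergic receptor *Adra2a*, the lipid receptor *Gpr119* and the purine receptor *P2ry1* had 1 each.

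Of the 59 genes of cyclic AMP and calcium signalling, 14 of the 55 with an ACS had an opening site, 23 among 812 ACS (2.83%). *Adcy8*, an adenylyl cyclase stimulated by calcium, had 4 of 46. The best covered, chr7:105285912-105286411, had 39.7, 26.8 and 35.5 CPM in adults and 12.5, 11 and 9.39 CPM at P10, and the one 1228 bp upstream of the start had 10.1, 12.8 and 12.1 CPM in adults and 6.0, 5.34 and 6.02 CPM at P10. *Prkacb*, a catalytic subunit of protein kinase A, had 4 of 87, of which the one inside the gene had 21.6, 23.2 and 16.9 CPM in adults and 7.37, 9.78 and 8.23 CPM at P10. *Pde10a*, a phosphodiesterase that degrades cyclic nucleotides, had 3 of 19, with 34.4, 23 and 24.4 CPM in adults and 14.2, 7.63 and 11.2 CPM at P10 at chr1:53727852-53728280. At this *Pde10a* site P10 replicate 2 was the lowest library and adult replicate 4 the highest.

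Glucose metabolism held 7 opening sites among 327 ACS (2.14%), at 6 of 44 genes. *Pdk4*, a kinase that inhibits pyruvate dehydrogenase, had one of the 10 best covered sites of the set, 33214 bp beyond the gene end, with 86.1, 74 and 94.7 CPM in adults and 37.8, 37.7 and 44.2 CPM at P10. *Slc2a2*, the main glucose transporter of rodent β-cells, had 1 of 21, 154779 bp upstream, with 17.2, 13.3 and 21.2 CPM in adults and 7.89, 5.11 and 6.13 CPM at P10. *Ppp1r3a*, a glycogen-targeting phosphatase subunit, had 2, and *Mdh1*, *Pdk1* and *Slc16a1* 1 each. Lipid metabolism held 8 among 343 ACS (2.33%), at 6 of 54 genes, and *Lpin1*, a phosphatidate phosphatase, had 79, 65.9 and 84.2 CPM in adults and 42.4, 38.6 and 35.8 CPM at P10 at a site 4214 bp upstream. *Abca1*, a cholesterol exporter, had 2 inside the gene, of which chr5:74091950-74092647 had 16.5, 16.2 and 12.5 CPM in adults and 6.14, 7.78 and 6.46 CPM at P10. *Ppargc1a*, the coactivator of mitochondrial genes, had 2 and is described with the gene-start sites.

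Insulin, IGF and growth signalling held 18 opening sites among 705 ACS (2.55%), at 14 of 46 genes. *Irs2*, an adaptor of the insulin and IGF receptors, had 3 of 32, all beyond the gene end, with 29.8, 30.5 and 35.9 CPM in adults and 15.2, 8.67 and 9.06 CPM at P10 at chr16:83448938-83449652. *Erbb4*, a receptor of neuregulins, had 2, and the upstream one at chr9:76048129-76048733 had 71.9, 65 and 83.1 CPM in adults and 29.8, 37.9 and 34.3 CPM at P10. The receptor *Met* had 42.8, 41.2 and 43.8 CPM in adults and 23.5, 25.2 and 23.6 CPM at P10 at a site inside the gene, and its ligand gene *Hgf* had 2 sites, with 25.2, 21.7 and 30.1 CPM in adults and 11.5, 13.6 and 14.2 CPM at P10 at the one inside the gene. Receptor and ligand genes of this pair therefore both had an opening site within the gene body. *Irs1*, *Igf1r*, *Egfr*, *Gab1*, *Grb14*, *Pik3r1*, *Sgk1*, *Igfbp2* and *Sorbs2* were among those with 1 each.

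The list of TGF-β, BMP, Wnt and Notch signalling held 17 among 823 ACS (2.07%), at 12 of 61 genes. *Inhba*, the βA subunit of activin, had 5 of 42, among them one of the best covered sites of the set, chr17:49180713-49181518, with 81.3, 61.9 and 96.9 CPM in adults and 33.4, 33.8 and 34.5 CPM at P10. The activin receptor *Acvr2a* had 51.3, 46.4 and 47.1 CPM in adults and 27.2, 27.9 and 27.3 CPM at P10 at a site 742968 bp upstream. *Rbpj*, the DNA-binding partner of Notch, had 2, and *Hes1*, a repressor that Notch induces, had 21.6, 19.2 and 18.1 CPM in adults and 10.1, 8.15 and 6.07 CPM at P10 at a site 37776 bp upstream. Adult replicate 5 was the lowest adult library at *Inhba* and replicate 6 at *Hes1*. *Inhbb*, *Acvr1*, *Bmpr1b*, *Fzd1*, *Hey2*, *Jag1*, *Lef1* and *Tcf7l2* had 1 each.

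The cell cycle list held 6 opening sites among 348 ACS (1.72%), at 4 of 43 genes. *Ccnd2*, the main D-type cyclin of β-cells, had 23.4, 22.7 and 22 CPM in adults and 10.5, 10.5 and 13.2 CPM at P10 at a site 86638 bp upstream. *Myc* had 2 beyond the gene end, with 15.7, 16 and 16.7 CPM in adults and 6.19, 9.71 and 9.11 CPM at P10 at the better covered, and *E2f7*, a repressor of the cycle, had 2 upstream, with 13.9, 14.4 and 16 CPM in adults and 4.68, 3.56 and 7.01 CPM at P10 at the nearer. *E2f3* had 1. These are activators and a repressor of proliferation alike. Among 37 AP-1 and immediate early genes, 12 opening sites lay among 423 ACS (2.84%), at 7 genes, led by *Dusp6* with 4 of 35. The best covered of these, chr7:41446497-41446857, 59540 bp upstream, had 29, 23.9 and 27.2 CPM in adults and 10.2, 9.71 and 9.77 CPM at P10. The 2 sites of *Klf4* were both upstream and the 2 of *Klf6* lay on either side of the gene.

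Genes known as disallowed in β-cells, whose expression is kept low in the mature cell, held 8 opening sites among 221 ACS (3.62%), at 5 of 28 genes. *Maf* had 3 of 13 and *Lmo4* 2 of 32. At the *Maf* site nearest to its gene, chr19:58913854-58914120, there were 14.3, 13.5 and 20.6 CPM in adults and 5.15, 4.22 and 3.81 CPM at P10. *Slc16a1*, a monocarboxylate transporter whose silence keeps circulating pyruvate from triggering insulin release, had 14.4, 11.9 and 11.5 CPM in adults and 6.61, 4.67 and 7.29 CPM at P10 at a site 18593 bp upstream, while its gene-start ACS had 14.8, 14.5 and 19.1 CPM in adults and 19.3, 26.2 and 24.6 CPM at P10. The upstream site was higher in all adult libraries and the start was lower in all 3 of them, and its call was lost in 5 of 10 alternative fits.

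Synaptic adhesion and axon guidance had the most opening sites of any list, 64 among 2082 ACS (3.07%), at 31 of 62 genes. This list also had the most ACS. *Lrrtm3*, a synaptic leucine-rich repeat protein, had 6 of 29, and the one inside the gene had 23.2, 23.6 and 18.4 CPM in adults and 4.39, 5.19 and 4.09 CPM at P10. *Astn2*, an astrotactin of neuronal migration, had 4 of 23, 3 of them in a row inside the gene, with 27.5, 25.6 and 25.8 CPM in adults and 8.13, 11.6 and 11.6 CPM at P10 at chr5:86142047-86142647. *Tenm4*, a teneurin, had 4 of 81, of which the one 8020 bp inside the gene had 17.5, 12.3 and 17.2 CPM in adults and 6.14, 1.85 and 2.71 CPM at P10. P10 replicate 1 stood above the other P10 libraries there. *Efna5*, an ephrin ligand that β-cells use for contact signalling, had 4 of 83, with 20.4, 19.9 and 22.4 CPM in adults and 6.52, 4.37 and 4.86 CPM at P10 at chr9:110166297-110166681. *Efnb2*, *Nrp1*, *Nrxn3*, *Robo1*, *Sema3c* and *Tenm2* had 3 each.

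Transcription regulators of growth and development held 28 opening sites among 973 ACS (2.88%), at 18 of 49 genes. *Bcl11b* had 4 of 30, and the best covered, chr6:140419595-140420143, had 28.6, 36.1 and 30.6 CPM in adults and 17.2, 14.1 and 12.7 CPM at P10, while its gene start was among the 3 called lower. *Klf12*, a zinc finger repressor, had 3 of 52, with 26.1, 23.7 and 30.2 CPM in adults and 5.72, 6.82 and 7.57 CPM at P10 inside the gene. *Tcf4* had 3 of 38, and *Sox4*, a factor of endocrine differentiation, 2 of 42, with 16.2, 15.7 and 15.8 CPM in adults and 3.59, 4.97 and 5.8 CPM at P10 at the upstream one. Adult libraries were within 1 CPM of each other at this *Sox4* site.

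Markers of the cell types that islet preparations can hold were counted in the same way. The 12 α-cell markers had 8 opening sites among 151 ACS (5.30%), at *Irx1*, *Irx2* and *Gc*. The 18 endothelial markers had 6 among 121 (4.96%), 5 of them upstream of *Cdh5*, the cadherin of endothelial junctions, from 102766 to 567376 bp away, and 1 at *Sox17*. The 14 β-cell markers had 3 among 134 (2.24%), at *Nkx6-1*, *Slc2a2* and *Npy*, and the site 69133 bp upstream of *Npy* had 11.3, 9.21 and 13.8 CPM in adults and 2.65, 1.7 and 1.88 CPM at P10. Single sites were found for the 9 δ-cell markers (*Sst*, among 44 ACS), the 6 PP and ε-cell markers (*Ghrl*, among 37), the 22 acinar markers (*Ptf1a*, among 104) and the 12 duct markers (*Cftr*, among 90), and 2 for the 20 mesenchymal and stellate markers (*Dcn* and *Twist2*, among 111). The 21 immune markers had 0 among 30 ACS and the 10 Schwann cell and glial markers 0 among 55.

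Some of these sites were well covered. The site 2100 bp upstream of *Ghrl*, the ghrelin gene, had 31.2, 29 and 25.5 CPM in adults and 16, 11.3 and 13.4 CPM at P10. The site inside *Cftr*, the chloride channel of duct cells, had 41.3, 30.5 and 47.4 CPM in adults and 12.4, 9.27 and 14.4 CPM at P10. The site 49077 bp beyond *Sst*, the somatostatin gene, had 21.5, 17.1 and 16.7 CPM in adults and 8.22, 11 and 6.07 CPM at P10. At *Cftr* adult replicate 6 was the highest and replicate 5 the lowest adult library, and the ACS at the gene start was called lower in adults (-0.73, adjusted p = 0.0411, edgeR). The site near *Ptf1a*, an acinar transcription factor, had 8.57, 8.62 and 9.98 CPM in adults and 1.61, 1.63 and 2.1 CPM at P10.

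The summed level of each marker list over its gene-start ACS shows how the lists themselves moved between libraries. For β-cell markers it was 261, 216 and 244 CPM in adults and 403, 262 and 284 CPM at P10 (10 of 14 genes with such an ACS, the most abundant being *Ins1*, exact permutation p = 0.1). For α-cell markers it was 211, 194 and 189 CPM in adults and 226, 228 and 253 CPM at P10 (10 of 12, *Irx2*, p = 0.1 by the same exact test). For δ-cell markers it was 52.9, 59.3 and 46.6 CPM in adults and 81.7, 85 and 87.4 CPM at P10 (7 of 9, *Hhex*, exact p = 0.1), and 5 of its 10 ACS were called lower. These 3 lists were lower in every adult than in every P10 library. The gap was narrow for β-cell markers, where adult replicate 4 and P10 replicate 2 were 261 and 262 CPM. Gene-start ACS outside the set were also called lower more often than higher (7.88% and 2.55%, edgeR). Their median log2 difference under TMM was -0.12 for genes without an opening site and 0.01 for genes with one. The log2 ratios of the lists under TMM were -0.15 for α-cell, -0.58 for δ-cell and -0.30 for β-cell markers. Whether a list moved more than gene starts in general was not tested. Without *Ins1*, which had 87.8, 74.7 and 93 CPM in adults and 206, 110 and 140 CPM at P10, the β-cell list had 173, 141 and 151 CPM in adults and 197, 152 and 144 CPM at P10, and the ages overlapped. *Ins2* of that list was called lower in adults (-1.12) and *Ucn3* higher (0.55), and *Nkx6-1*, *Iapp* and *Hadh* neither way. Without their most abundant gene the α-cell and δ-cell lists were still lower in every adult library. With 3 libraries against 3, an exact 2-sided permutation test cannot give a p below 0.1.

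The lists of other cell types were as follows. Duct markers had 133, 132 and 127 CPM in adults and 145, 155 and 154 CPM at P10 (8 of 12 genes, most abundant *Car2*, exact permutation p = 0.1). Endothelial markers had 26.8, 33.7 and 37.4 CPM in adults and 38.8, 46.3 and 46.2 CPM at P10 (4 of 18, *Tek*, exact p = 0.1). Mesenchymal and stellate markers had 47.2, 54.1 and 54.3 CPM in adults and 56.4, 65.7 and 58 CPM at P10 (8 of 20, *Vim*, exact p = 0.1). All 3 were lower in each adult than in each P10 library. Without their most abundant gene the duct list was still so, while the ages overlapped for the endothelial and the mesenchymal and stellate lists. Under TMM the log2 ratio was -0.12 for duct, -0.33 for endothelial and -0.12 for mesenchymal and stellate markers. It was -0.18 for the acinar markers below. The medians over gene starts given above are the background for these values too, and the difference from them was not tested. Acinar markers had 24.3, 27.5 and 18.9 CPM in adults and 30.8, 28.2 and 26.5 CPM at P10 (4 of 22, *Bhlha15*, exact permutation p = 0.2). Without *Bhlha15* they had 4.2, 7.07 and 6.69 CPM in adults and 8.69, 11.6 and 8.67 CPM at P10, lower in every adult library, and *Cpa1*, *Cel*, *Amy2a3*, *Prss1* and 14 other enzyme and secretory genes of the list had no gene-start ACS.

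The summed immune markers were higher in every adult than in every P10 library, 50.6, 47.5 and 52.3 CPM in adults and 43.6, 36.7 and 39.5 CPM at P10 (3 of 21 genes, most abundant *Cd74*, exact permutation p = 0.1), and *Ptprc*, *Cd68* and *Csf1r* had no gene-start ACS. The higher adult level was that of *Cd74*, with 29.7, 26.3 and 36 CPM in adults and 16.5, 16.5 and 18.4 CPM at P10. Without it the list had 20.9, 21.2 and 16.3 CPM in adults and 27.2, 20.2 and 21.1 CPM at P10, and an ACS of *Ikzf1* was called lower (-0.71, adjusted p = 0.162, edgeR). Schwann and glial markers had 58.5, 58.8 and 46.4 CPM in adults and 57.2, 55.3 and 46.7 CPM at P10 (3 of 10, *Mbp*, exact p = 0.6), with none at *Sox10*. *Mbp* was called higher in adults (0.38), and without it the list had 18.5, 18.9 and 12.4 CPM in adults and 24.1, 23.7 and 17.4 CPM at P10, and the ages overlapped. With total reads as library sizes both lists were lower in adults, as were the 7 lists given above. The defining endothelial marker *Pecam1* and *Cdh5* itself had no gene-start ACS. The part of these cell types in the opening sites was not tested.

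The 21 opening sites at gene starts belonged to 21 genes. *Oacyl*, an acyltransferase-like gene, had the best covered after *Foxa1*, chr18:60573110-60573804, with 55.2, 28.8 and 38.3 CPM in adults and 18.5, 9.64 and 15.2 CPM at P10. *Emp1*, an epithelial membrane protein, had 33.9, 25.8 and 33 CPM in adults and 13.6, 12.8 and 11 CPM at P10 at chr4:233429114-233429815, which covers the gene start. At *Oacyl* the adult libraries differed from each other more than at most sites, from 28.8 to 55.2 CPM. *Ppargc1a* had 20.1, 22.8 and 29.4 CPM in adults and 13.4, 10.7 and 11.9 CPM at P10 at chr14:63194818-63195245, also over the start. *Fgb*, the fibrinogen β chain, had 20.7, 24.3 and 23.1 CPM in adults and 9.92, 9.41 and 9.94 CPM at P10 at chr2:201449635-201449989, over the start as well. Adult replicate 6 was the highest library at *Ppargc1a* and replicate 5 at *Fgb*. The antiviral gene *Mx2* had 19.1, 18.7 and 22.2 CPM in adults and 11.8, 11.2 and 11.5 CPM at P10, and *Asb5*, 865 bp upstream of its start, 15.6, 15.7 and 18.7 CPM in adults and 2.79, 2.67 and 4.36 CPM at P10. Others included *Casp12*, *Ccdc33*, *Defb18*, *Dirc2*, *Exoc6*, *Flnc*, *Il1rn*, *Ldb3*, *Naa30*, *Pag1*, *Rab12*, *Sowahd* and the gene listed as LOC690918.

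The 10 opening sites with the highest mean count lay near *Lce1m*, *Kctd1*, *Panx1*, *Pdk4*, *Synpo*, *Inpp4b*, *Inhba*, *Erbb4*, *Lpin1* and *LRRTM1*. The site 8860 bp upstream of *Lce1m*, a late cornified envelope gene, had 105, 81.4 and 94.9 CPM in adults and 41.6, 42.4 and 45.7 CPM at P10. The one 16191 bp beyond *Kctd1* had 87.9, 86.7 and 94.6 CPM in adults and 45.9, 48.6 and 55.5 CPM at P10. The one 1536 bp beyond the end of *Panx1*, a channel that releases ATP, had 87.5, 71 and 104 CPM in adults and 40.6, 33.8 and 34.6 CPM at P10. At all 3, P10 islets already had over 30 CPM, so these sites were open at both ages and more so in adults. *Synpo*, an actin-associated protein, had 83.8, 68.8 and 71.7 CPM in adults and 43.1, 38.5 and 41.7 CPM at P10 inside the gene, and *Inpp4b*, a phosphoinositide phosphatase, 75.5, 58.5 and 75.9 CPM in adults and 34.8, 29.2 and 31.3 CPM at P10, also inside the gene.

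Sequences are shown where a file held them. A table of the study gives the Rn5 sequence of 2 opening sites, those upstream of *Syt4* and of *Pax6*, in an orientation the table does not state, and the first 300 bases of each are printed as the only sequences of opening sites at hand. A set of 22 short motifs was searched on both strands, and capitals mark every match. The *Syt4* stretch is chr18:23903464-23903763 and the *Pax6* stretch chr3:102302140-102302439.
Syt4 site: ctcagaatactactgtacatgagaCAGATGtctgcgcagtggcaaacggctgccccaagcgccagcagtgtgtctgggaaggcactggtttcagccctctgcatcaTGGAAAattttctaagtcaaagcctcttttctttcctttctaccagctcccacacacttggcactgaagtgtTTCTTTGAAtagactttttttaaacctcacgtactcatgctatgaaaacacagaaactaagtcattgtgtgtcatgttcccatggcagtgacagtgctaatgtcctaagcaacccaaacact
Pax6 site: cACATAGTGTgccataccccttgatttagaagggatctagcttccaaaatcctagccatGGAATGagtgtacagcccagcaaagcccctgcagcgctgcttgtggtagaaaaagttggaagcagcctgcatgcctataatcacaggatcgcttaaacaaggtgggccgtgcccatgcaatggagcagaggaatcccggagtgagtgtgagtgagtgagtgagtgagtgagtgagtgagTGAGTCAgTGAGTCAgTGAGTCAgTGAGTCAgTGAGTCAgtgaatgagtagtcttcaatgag
In the *Syt4* stretch the capitals are an E-box spelled CAGATG, an NFAT motif spelled TTTCCA that matched on the other strand, and a STAT motif spelled TTCNNNGAA. In the *Pax6* stretch they are a steroid receptor motif spelled ACANNNTGT, a TEAD motif spelled GGAATG and the AP-1 motif, spelled TGANTCA. The AP-1 motif occurred 5 times there, each match starting 8 bases after the one before. The matches are units of a repeated stretch and not separate occurrences. Of 33469 rat promoters of 300 bases, 7.33% held the AP-1 motif, 16.6% this E-box, 22.7% the NFAT motif, 8.87% the STAT motif, 6.86% the steroid receptor motif and 14.2% the TEAD motif. Both stretches lie outside gene starts, so promoters are an unlike background for them. A match of letters is a description and does not show that a factor binds.

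Promoters from 250 bases before to 50 after the gene start were taken from RefSeq (assembly GRCr8) for 17 of the 21 genes with an opening site at the start, matched by gene ID. The 3 printed here, chosen after their values were seen, belong to genes whose opening site overlaps the start in Rn5, and whether these GRCr8 bases fall inside the Rn5 site was not tested. They are *Ppargc1a* (chr14:63634058-63634357, plus strand), *Fgb* (chr2:170700826-170701125, minus strand) and *Emp1* (chr4:169943980-169944279, plus strand) in GRCr8 positions, and capitals again mark the motifs.
Ppargc1a promoter: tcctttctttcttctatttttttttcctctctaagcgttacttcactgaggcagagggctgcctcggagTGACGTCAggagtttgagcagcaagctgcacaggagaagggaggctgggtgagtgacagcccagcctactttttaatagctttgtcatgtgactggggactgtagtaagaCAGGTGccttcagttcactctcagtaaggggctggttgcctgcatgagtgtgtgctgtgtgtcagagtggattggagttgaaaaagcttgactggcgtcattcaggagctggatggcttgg
Fgb promoter: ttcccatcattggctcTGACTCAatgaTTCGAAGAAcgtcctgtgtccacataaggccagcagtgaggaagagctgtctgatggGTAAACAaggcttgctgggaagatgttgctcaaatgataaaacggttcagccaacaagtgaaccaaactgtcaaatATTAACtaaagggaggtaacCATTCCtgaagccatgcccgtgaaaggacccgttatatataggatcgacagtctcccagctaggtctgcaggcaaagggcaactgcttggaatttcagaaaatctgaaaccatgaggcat
Emp1 promoter: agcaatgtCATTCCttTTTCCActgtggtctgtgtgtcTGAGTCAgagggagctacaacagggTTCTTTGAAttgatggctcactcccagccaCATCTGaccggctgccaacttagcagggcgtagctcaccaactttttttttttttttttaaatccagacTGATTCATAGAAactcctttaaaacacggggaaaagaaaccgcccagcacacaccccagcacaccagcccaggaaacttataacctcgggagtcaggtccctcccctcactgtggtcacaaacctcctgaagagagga
*Ppargc1a* held the cyclic AMP response element TGACGTCA, which 1.83% of all promoters held, and the SCRT motif CAGGTG, which 18.8% held. *Fgb*, a gene of liver cells, held the AP-1 and STAT motifs, the TEAD motif on the other strand, a FOX motif spelled TGTTTAC (3.78% of all promoters) and an HNF1 motif spelled GTTAAT (7.45%), the last pair also on the other strand. *Emp1* held the AP-1 motif 2 times, the STAT motif 2 times with 1 overlapping an AP-1 match, and the NFAT, TEAD and E-box motifs once each. Over the 17 promoters the AP-1, NFAT and SCRT motifs were each in 5 (29.4%), beside 7.33%, 22.7% and 18.8% of all promoters. The clock E-box CACGTG was in 3 of them (17.6%), beside 6.42% of all promoters, and no test was made on so few. Of all 2255 opening sites 7 overlapped a gene start, so these counts describe promoter windows and not the opening sites.

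The other motifs searched were, with their share of all promoters, a FOX variant spelled TGTTTGC with 4.88%, the RFX motif spelled GTTGCCA with 4.56%, the MAF motif spelled TGCTGAC with 4.44% and a HOX motif spelled TAATTA with 5.36%. Further ones were an E-box spelled CATATG with 4.11%, the D-box spelled TTATGTAA with 0.893%, a nuclear receptor motif spelled AGGTCA with 16.2% and the HNF4 motif spelled CAAAGTCC with 1.40%. The last were the ETS motif spelled CCGGAAG with 8.75%, the CTCF motif spelled CCACNAGG with 5.12% and the GATA motif spelled AGATAA with 11.6%. These and the clock E-box matched in none of the 5 printed stretches, which says only that the letters are not in those windows.

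MicroRNA genes were the nearest gene of 30 opening sites, 25 genes in all, chosen for description after their values were seen. Of the 25 genes 23 were matched by gene ID in RefSeq GRCr8, and 21 of these lie on the same chromosome there as in the deposited table. *Mir193b* and *Mir224* did not, and are left aside. The 26 sites of the 23 other genes lay from 10399 to 910767 bp from the gene start, with a median of 125010 bp, and none was at a start.

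Several of these microRNAs are known in islet or muscle cells. The site nearest to its gene, 10399 bp from the start of *Mir187*, a microRNA that is raised in islets of people with type 2 diabetes, had 10.9, 8.92 and 10.2 CPM in adults and 5.05, 4.74 and 5.3 CPM at P10. The site 30995 bp from *Mir206* had 10.6, 7.36 and 10.9 CPM in adults and 3.12, 3.26 and 2.98 CPM at P10, and the site 62897 bp from *Mir1* had 16.7, 15.8 and 14.9 CPM in adults and 5.39, 4.08 and 5.03 CPM at P10. Both are best known from muscle, and their mature forms share a seed. The site 92793 bp from *Mirlet7i* had 22.9, 16.6 and 21.3 CPM in adults and 8.22, 6.6 and 5.03 CPM at P10, and the one 136475 bp from *Mirlet7f2* had 8.82, 7.17 and 5.81 CPM in adults and 2.5, 1.78 and 2.76 CPM at P10. These belong to the let-7 family, which restrains growth signalling. The site 63436 bp from *Mir29b1*, whose product represses the disallowed gene *Slc16a1*, had 14.9, 13.6 and 10.1 CPM in adults and 3.78, 4.37 and 4.31 CPM at P10. The site 33477 bp from *Mir139* had 11.2, 7.85 and 8.08 CPM in adults and 4.06, 3.19 and 3.87 CPM at P10, and the one 108979 bp from *Mir148a*, a microRNA that raises insulin expression, had 26.9, 29.5 and 22.4 CPM in adults and 9.16, 9.78 and 11.7 CPM at P10. Adult replicate 6 was the lowest adult library at *Mir1*, *Mir29b1*, *Mirlet7f2* and *Mir148a*. The mature sequences are printed 5′ to 3′ with the seed, bases 2 to 8, in capitals, to show which share one.
miR-1-3p: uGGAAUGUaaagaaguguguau
miR-206-3p: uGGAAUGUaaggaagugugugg
let-7i-5p: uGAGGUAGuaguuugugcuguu
let-7f-5p: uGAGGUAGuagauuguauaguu
miR-187-3p: uCGUGUCUuguguugcagccgg
miR-29b-3p: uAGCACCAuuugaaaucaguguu
miR-148a-3p: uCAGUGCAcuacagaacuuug
miR-139-5p: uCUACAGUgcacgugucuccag
In GRCr8 these sequences lie at chr18:2160339-2160360 (minus strand), chr9:30590747-30590768 (plus), chr7:60527935-60527956 (minus), chrX:24460052-24460073 (plus), chr18:16005964-16005985 (minus), chr4:60618342-60618364 (minus), chr4:81664447-81664467 (minus) and chr1:165290865-165290886 (plus), in that order. Among the 35 mature sequences of 19 of these genes, the seed GGAAUGU was shared by miR-1-3p and miR-206-3p, and GAGGUAG by let-7i-5p and let-7f-5p, while no other seed was shared between genes. The nearest genes of the set as a whole were on the same chromosome in both assemblies for 1613 of the 1622 found in RefSeq.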

How the data were processed

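The deposited table gives raw counts of Tn5 integrations per accessible site for 3 adult and 3 P10 rat islet libraries. The authors aligned reads to Rn5 with BWA 0.7.13 and called sites with MACS2 2.1.1 (also FastQC 0.11.2 and SAMtools 1.3). Duplicate removal is not stated. The authors' own comparison columns (fold change, mean level, F, p, FDR) were not used. Of 101941 listings 338 repeated a site. Of 6899 listings without a gene symbol, 6707 were named by gene ID in RefSeq GRCr8.

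Counts were scaled by each library's sum over distinct sites. Ages were compared over all sites by edgeR 4.0.16 quasi-likelihood fits with TMM factors and without a filter, adult minus P10, checked on simulated data. Alternatives were TMM for the scaled counts, total reads as library sizes, DESeq2 1.42.0, limma-voom 3.58.1, filterByExpr, other count minimums and factors, a stricter FDR, every listed entry, and leaving out each library. Marker lists were compared by exact 2-sided permutation tests. Wilson intervals cover counting error only. R 4.3.3, Python 3.11.15, pandas 2.3.3, numpy 2.4.6 and scipy 1.17.1 were used.

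The members and lists were chosen with earlier results of these data known. Genes named by rule were the 10 with the most opening sites, up to 4 per list with the most (ties by mean count), the 10 sites with the highest mean count, up to 10 at gene starts, 3 sites on each side of the threshold, genes singled out by the study that had an opening site, and the 3 runs with the most sites. Other names were chosen after their values were seen. No Rn5 genome was at hand, so sequences and motifs over all opening sites were not analysed here.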

Additional observations from a re-analysis of the deposited data

How the results depend on the processing

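The number of opening sites was 2255. It was 209 with total reads as library sizes, 1258 with a mean count of at least 100, 4454 with a lower factor and 725 with a factor of 2, and without single libraries it ran from 2448 to 3620. TMM scaling (2748), a mean count of at least 20 (2636) and every listed entry (2253) stayed within 1.5 times. The lower counts with a higher minimum or factor follow from their construction, and for total reads the cause was not tested. Leaving out a library can by construction only relax the condition on CPM.

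The distal share of 91.2% was 94.7% with total reads, 89.9% with the lower factor and 93.1% with a factor of 2, and 89.1% to 91.4% without single libraries. The share inside a gene was 27.5% (22.0% over ACS of that depth), and 21.1% with total reads, 22.8% with a factor of 2 and 26.6% to 29.8% without single libraries.

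Over all sites 12504 were called higher in adults, 1062 with total reads, 7177 at an FDR under 0.05, and 7973 to 13232 without single libraries. The calls lower in adults went from 6738 to 1945 at an FDR under 0.05. Gene-start calls numbered 65, with total reads 0 (1130 lower, from 71), and without single libraries 22 to 123. Calls at other sites of the same genes numbered 3773, with total reads 75, and without single libraries 2243 to 4203. DESeq2, limma-voom and filterByExpr gave counts within 1.5 times for all 3, though the gene-start calls of *Bach1* (DESeq2), *Tiam1* (DESeq2 and limma-voom) and *Slc16a1* (limma-voom) were lost.

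The log2 ratio of adult to P10 marker levels under TMM was -0.15 for α-cell markers (from -0.25) and -0.12 for duct markers (from -0.21). Within the spread between replicates, it also moved to -0.12 for mesenchymal (from -0.21), -0.18 for acinar (from -0.27) and 0.14 for Schwann markers (from 0.04). With total reads it was -0.98 for α-cell, -1.41 for δ-cell, -0.87 for PP and ε-cell, -1.02 for acinar, -0.95 for duct, -1.16 for endothelial, -0.95 for mesenchymal, -0.44 for immune (from 0.33), -0.71 for Schwann and -1.18 for β-cell markers. With total reads the gene starts of *Bach1* (-0.44), *Dusp6* (-0.21), *Ppargc1a* (-0.39), *Syt4* (-0.16) and *Tiam1* (-0.24) reversed. The cause was not tested.

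The median over the left-out pairs (0.97) moved by less than their spread under each scaling and count minimum tried, but with total reads the lowest pair fell from 0.64 to 0.09, the highest rose from 1.14 to 1.41, and the lowest share above 0 fell from 83.9% to 54.7%. No paired analysis was possible because the adult libraries are numbered 4 to 6 and the P10 libraries 1 to 3, with no number shared. The motif alternative was not run for lack of an Rn5 genome. Counts as low as 12 in a library limit single sites.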
